A study of Arabidopsis thaliana with 16 samples.

Results

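GH9B16 (AT4G38990) and GH9B12 (AT2G44570) are Arabidopsis thaliana genes of glycosyl hydrolase family 9, class B, and each was measured by 1 array feature that the platform annotation pairs with exactly 1 gene. They are 2 of the 692 single-gene features among 3439 features in all, and they were chosen by gene name after the differences between the light groups on these arrays had been seen. The measured intensities in blue and white light thus entered the choice, and the values of both genes are given as a description, without a test. Wild-type plants of the ecotype Landsberg were exposed for 48 hours to white light or to blue light, each at 20 µE, with 8 array columns of total RNA in either group, numbered 1 to 8. The organ, the plants' age and their growth before the exposure are not stated in the labels, nor is it stated whether the columns came from separate plants.

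Enzymes of this family are endoglucanases that cut beta-linked glucan chains inside the chain, cellulose and related wall glucans among them. Class A members such as KORRIGAN sit in the membrane and take part in cellulose synthesis, class C members carry a carbohydrate-binding module, and class B members are soluble, secreted enzymes with neither feature. Plant cells loosen and rebuild their walls as they expand, separate or shed organs, and secreted endoglucanases are among the enzymes active in that work.

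In the TAIR10.1 gene table both genes lie in rows of related genes. GH9B16 is on chromosome 4 with GH9B17 and GH9B18 as the next protein-coding genes. GH9B12 is on chromosome 2 and is the last of a row of 4 that starts with GH9B9, GH9B10 and GH9B11. Genes in such rows can share sequence, and how far either feature also detects its neighbours was not tested.

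Each column held linear intensities between 0 and 100, and the total signal per column was 1044 to 3320 in white light and 3067 to 3735 in blue light. Each column was closest to the column with the neighbouring replicate number, so replicates 1 and 2, 3 and 4, 5 and 6, and 7 and 8 were averaged and counted as 1 sample each, which gave n = 4 averaged samples per group. White light replicates 7 and 8 had the lowest totals, at 1044 each. Of the 22 green tissue markers listed, 5 had a single-gene feature (PSAN, PSBY, LHB1B2, PRK and PSBW), and all 5 were above 0 in every column, with a summed intensity of 10.3 to 63.7 in white light and 51.2 to 84.3 in blue light. No marker of root, flower, seed or senescence had a single-gene feature.

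GH9B16 had a higher deposited intensity in blue light than in white light in all columns. In white light its intensity had a lowest value of 0.0648, a median of 0.112 and a highest value of 0.145 over the 8 columns. In blue light the lowest was 0.427, the median 0.865 and the highest 1.26. The groups did not overlap, and the dimmest blue light column was 2.94 times as bright as the brightest white light column. That pattern was common among all features, since 37.5% of the 2864 tested features had a higher deposited intensity in every blue light column than in every white light column.

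Over the averaged samples the intensity of GH9B16 was 0.107 ± 0.0228 (SD, n = 4) in white light and 0.858 ± 0.315 (SD, n = 4) in blue light. White light sample 4 (replicates 7 and 8) was the dimmest of its group at 0.0733, and blue light sample 4 the dimmest of its group at 0.436. On the log2 scale the difference in deposited intensity was 2.95 (SE 0.40), while the median difference of all tested features was 1.36. GH9B16 thus lay above the shift that most features shared, and whether that shift comes from the RNA or from the scale of the columns cannot be told apart. In RNA of whole samples, fewer cells that express a gene and less RNA of it per cell cannot be told apart either.

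GH9B12 behaved differently as deposited. Its intensity in white light had a lowest value of 0.284, a median of 0.323 and a highest value of 0.471. In blue light the lowest was 0.347, the median 0.432 and the highest 0.622, and the groups overlapped. The averaged samples were at 0.349 ± 0.0651 (SD, n = 4) in white light and 0.463 ± 0.0979 (SD, n = 4) in blue light. The log2 difference of 0.41 (SE 0.33) was below the median difference of 1.36, and 2324 of the 2864 tested features had a larger one.

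Neighbouring columns gave close values for both genes. Their intensities differed by at most 1.44-fold for GH9B16 and by at most 1.39-fold for GH9B12, and in each gene the least alike neighbours were white light replicates 5 and 6. Within white light the brightest column exceeded the dimmest by 2.24-fold for GH9B16 and by 1.66-fold for GH9B12. In blue light these spans were 2.95-fold and 1.80-fold.

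The place of a feature among all features of its column does not depend on how that column is scaled. In white light GH9B16 lay between the 27.2 and the 45.0 percentile of its column, and in blue light between the 51.9 and the 80.3 percentile. It lay below the middle of all features in each white light column and above it in each blue light column, with no overlap between the groups. In blue light replicates 7 and 8 it was only just above the middle, at 51.9 and 54.3, with features listed at 0 ranked too. Of the tested features, 8.83% had a higher percentile in every blue light column than in every white light column.

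The order was the other way round for GH9B12. It lay between the 53.8 and the 85.9 percentile in white light and between the 36.3 and the 54.0 percentile in blue light. In 7 of the 8 blue light columns its place was below that of every white light column, and blue light replicate 5 overlapped white light replicate 2. A lower percentile in every blue light column than in every white light column was found for 11.7% of the tested features, GH9B12 not among them. White light sample 4 held the highest place, at 85.6 over replicates 7 and 8, and white light sample 1 the lowest, at 55.3.

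**Figure D1:**
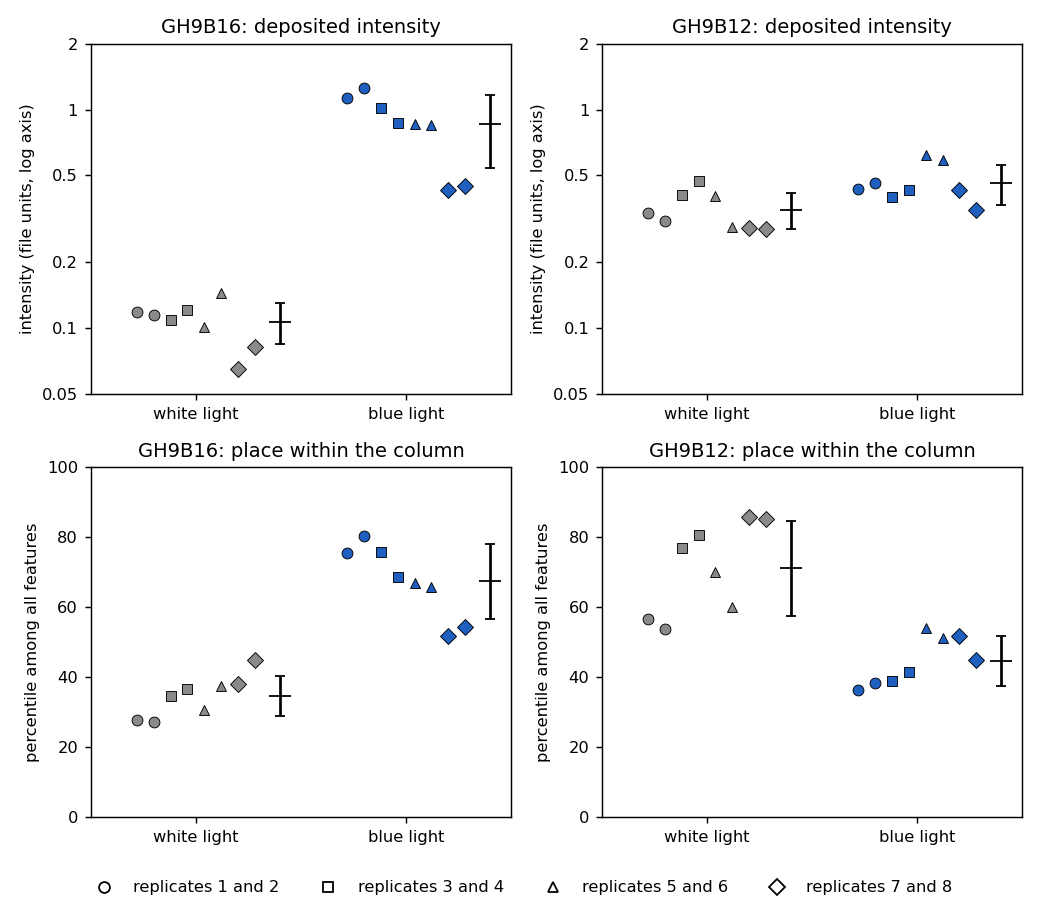
Deposited intensity (upper panels, log axis) and percentile among all features of the column (lower panels) of GH9B16 and GH9B12 in the 8 white light and 8 blue light columns. Each point is a column, the marker shape gives the averaged sample, and the bar is the mean ± SD of the 4 averaged samples. GH9B16 is higher in all blue light columns in both panels, while GH9B12 overlaps in intensity and has a percentile below every white light column in 7 of the 8 blue light columns.

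The ratio of GH9B16 to GH9B12 within a column is likewise free of that column's scale. Its absolute size also depends on how strongly each feature binds its target, so only its change between columns is read here. In white light the ratio had a lowest value of 0.225, a median of 0.278 and a highest value of 0.502. In blue light the lowest was 1.0, the median 1.74 and the highest 2.73. The ratio was higher in all 8 blue light columns than in any white light column, and blue light replicate 7 had the lowest ratio of its group. White light replicates 5 and 6, averaged as 1 sample, were far apart at 0.250 and 0.502.

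Over the averaged samples the log2 ratio was -1.72 ± 0.27 (SD, n = 4) in white light and 0.82 ± 0.58 (SD, n = 4) in blue light. The difference was 2.54 (SE 0.32), a 5.81-fold higher ratio in blue light. It was positive in each of the 4 pairs of equal sample number, at 2.88, 3.11, 2.0 and 2.16. The blue light samples were more spread out than the white light samples, and samples 1 and 2 had higher log2 ratios (1.41 and 1.19) than samples 3 and 4 (0.51 and 0.18).

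**Figure D2:**
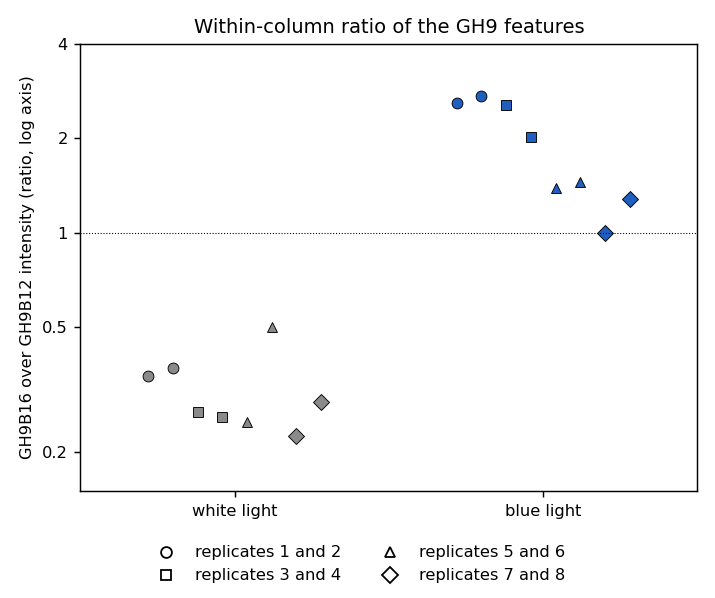
Intensity of GH9B16 divided by that of GH9B12 in each column (log axis), with the marker shape giving the averaged sample and the dotted line at 1 drawn as a guide to the scale. The white light columns lie between 0.225 and 0.502 and the blue light columns between 1.0 and 2.73.

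The same ratio was formed with every other feature that was above 0 in all 16 columns. Relative to 39.4% of 2497 such features, GH9B16 was higher in every blue light column than in every white light column, and relative to 0.120% it was lower. For GH9B12 these shares were 1.60% higher and 22.9% lower. Set against the array as a whole, GH9B16 was thus more often higher and GH9B12 more often lower in blue light.

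After quantile normalization, which gives all columns the same distribution, GH9B16 was at -2.48 ± 0.31 (SD, n = 4) in white light and at -1.0 ± 0.45 (SD, n = 4) in blue light, in log2 units. The groups of averaged samples did not overlap, as for 15.9% of the tested features in that direction. The blue minus white difference, 1.48 (SE 0.30), corresponds to a 2.79-fold higher level in blue light. It was positive in all 4 number pairs, at 2.32, 1.55, 1.5 and 0.55, and was smallest in sample 4. A larger positive difference was found for 268 of the 2864 tested features.

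GH9B12 was at -0.84 ± 0.61 (SD, n = 4) in white light and at -1.91 ± 0.28 (SD, n = 4) in blue light after the same step. The difference was -1.06 (SE 0.34), or a 2.09-fold lower level in blue light, and it was negative in all 4 number pairs, between -1.63 and -0.42. Its averaged samples did not overlap either, as for 17.4% of the tested features in that direction. A more negative difference was found for 423 of the tested features. Without white light replicates 7 and 8 the difference was -0.84.

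The direction for GH9B16 was the same under every scaling tried, and that for GH9B12 was not. The log2 difference of GH9B16 was 2.95 without normalization, 2.25 scaled to total signal, 1.46 with median centring and 1.35 with cyclic loess. The log2 difference of GH9B12 was 0.41 without normalization, -0.29 scaled to total signal, -1.07 with median centring and -1.11 with cyclic loess. Under each of these scalings GH9B12 stayed below the median difference of all features, which was 1.36, 0.67, -0.12 and 0.03 in the same order. GH9B16 stayed above it. Scaling to total signal and median centring shift all features of a column alike, so neither could alter a place relative to that median.

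**Figure D3:**
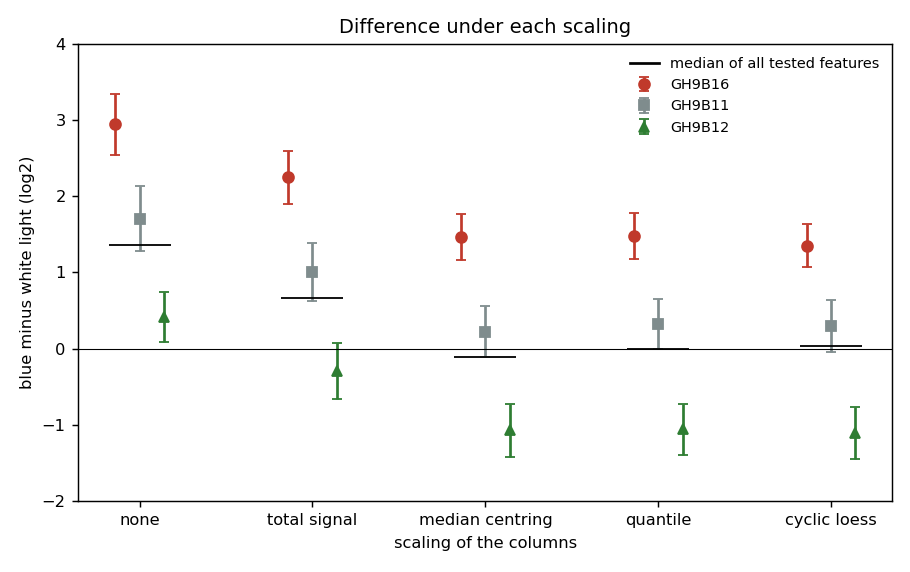
Difference between blue and white light on the log2 scale for GH9B16, GH9B11 and GH9B12 under 5 scalings of the columns, with bars giving the SE from the fit over 4 averaged samples per group and black lines the median difference of all tested features. GH9B16 lies above that median and GH9B12 below it under each scaling, while GH9B12 is above 0 only without normalization. Scaling to total signal and median centring cannot alter a place relative to that median.

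The other measured members of the family were few. Of the 25 GH9 genes in the gene table, 4 had a single-gene feature, namely GH9B8, GH9B11, GH9B12 and GH9B16. A further 7 features were annotated to several genes with a GH9 gene among them. The fit over all features called 32.4% of 2864 features, with 15.9% higher and 16.4% lower in blue light (limma, adjusted p threshold of 0.05). With the sample number as a block it called 41.7%.

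GH9B11, the gene next to GH9B12, is the closest comparison available. Its intensity had a lowest value of 0.155, a median of 0.294 and a highest value of 0.450 in white light, against 0.512, 1.04 and 1.38 in blue light. After quantile normalization its difference was 0.32 (SE 0.33) and did not pass (limma adjusted p = 0.480). Without normalization it passed at 1.71, a setting under which 1530 of the 2864 tested features passed as higher in blue light.

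Within each column the ratio of GH9B16 to GH9B12 was also split at GH9B11. The parts multiply to that ratio, so they are no separate result. The ratio of GH9B11 to GH9B12 was 0.545 to 1.13 in white light and 1.27 to 2.64 in blue light, a log2 difference of 1.30 (SE 0.28). The ratio of GH9B16 to GH9B11 was 0.257 to 0.606 in white light and 0.625 to 1.16 in blue light, a log2 difference of 1.24 (SE 0.26). The groups did not overlap in either ratio. In these directions that held for 22.9% of 2497 features set against GH9B12 and 39.4% set against GH9B16. The log2 difference of the second ratio was uneven over the 4 number pairs, from 0.37 to 1.90, while that of the first ran from 1.16 to 1.64.

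GH9B8, another class B gene, was too often at 0 to be tested. It was listed at 0 in 6 of the 8 white light columns, with 0.0684 in replicate 1 and 0.0359 in replicate 6. In blue light it was listed at 0 in replicate 7 and was between 0.199 and 0.816 in the other columns. The highest of these, 0.816 in replicate 8, had the 0 of replicate 7 as its neighbour. Entries of 0 may be readings that failed, and a fold is not given.

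Among the 7 features annotated to several genes, 5 could be tested, of which 1 was higher in blue light and none was lower (limma, with 1 at an unadjusted p under 0.05), while 15.9% of all tested features were higher and 16.4% lower. The feature called was annotated jointly to GH9B9 and GH9B10, of the row that ends with GH9B12. Its difference was 1.70 (SE 0.45, limma adjusted p = 0.0166), with intensities of 0.0100 to 0.163 in white light and 0.266 to 1.05 in blue light. That call ended without white light replicate 7 and without blue light replicates 5 and 6. The median difference of the 5 tested joint features was 0.03, against a median of 0.00 over all tested features. The rest were too often at 0 in white light to be tested. That annotated to GH9B17, GH9B18 and AT3G42155 was above 0 in 1 white light column (0.0420) and in 8 blue light columns (0.110 to 0.345). A feature annotated to GH9B14 and GH9B15 was at 0 in all white light columns and above 0 in 6 blue light columns. Over all features, 404 to 574 were at 0 per white light column and 425 to 492 per blue light column. The features that share a gene with the members were looked at after their values were seen. The feature annotated jointly to GH9B16, GH9B17 and GH9B18 had a difference of -0.23 (SE 0.28) and did not pass (limma adjusted p = 0.546). Its intensity was 0.0810 to 0.554 in white light and 0.434 to 0.914 in blue light. The feature annotated jointly to GH9B9, GH9B10, GH9B11 and GH9B12 had a difference of -0.31 (SE 0.44) and did not pass either (limma adjusted p = 0.608). Which of its annotated genes a joint feature measures cannot be told apart.

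**Figure D4:**
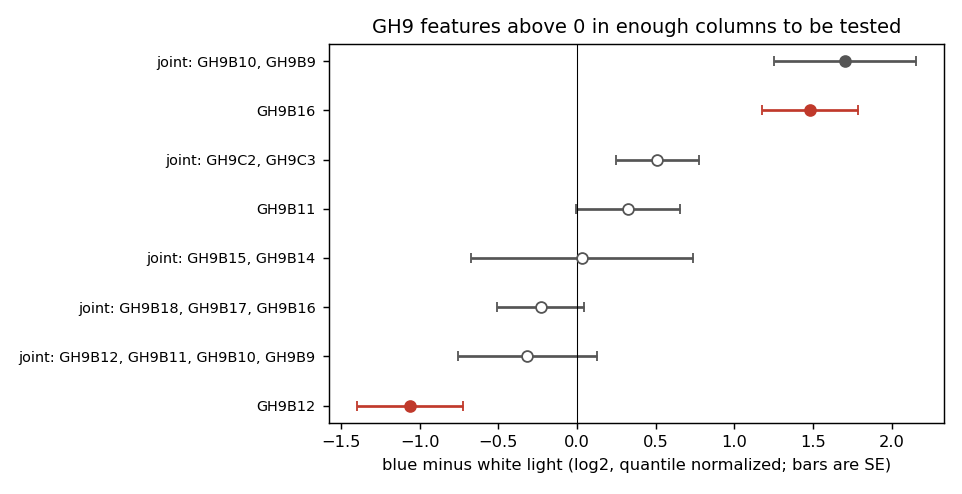
Difference between blue and white light (log2, quantile normalized) of the 8 GH9 features that were above 0 in enough columns, with bars giving the SE from the fit. Red points are GH9B16 and GH9B12, shown as a description. The filled grey point passed in limma and the open points did not, and features marked joint are annotated to several genes.

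Other genes of the cell wall were hardly represented by single-gene features. The 8 lists covered cellulose synthesis, expansins and xyloglucan, pectin, matrix glycans, other glycosyl hydrolases, lignin and wall proteins besides the GH9 family, and only the matrix glycan list held such a feature outside the family. This was CSLA01, a cellulose synthase-like gene of the mannan synthase group, with intensities of 0.0187 to 0.0896 in white light and 0.0892 to 0.294 in blue light. Its normalized difference was 0.31 (SE 0.29) and did not pass (limma adjusted p = 0.439). Scaled to total signal it passed at 1.22, and without normalization at 1.92. Under these settings 1074 and 1530 of the 2864 tested features passed as higher in blue light. GH9B11 and CSLA01 were the 2 genes of the lists that could be tested beside GH9B16 and GH9B12, and 0 of 2 passed in limma, with 0 at an unadjusted p under 0.05, while 30.7% of all tested single-gene features passed. A further 9 features annotated to several genes, with a gene of these lists among them, gave 3 higher, 1 lower and 5 that did not pass, with 7 at an unadjusted p under 0.05 against 1232 of the 2864 tested features. With the sample number as a block 6 of the 9 passed. Over all tested features 32.4% passed in limma, and 41.7% with the block.

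Likeness of profile was measured as the root mean square difference over the 8 averaged samples, after quantile normalization and with each profile centred on its own mean, among 490 other single-gene features above 0 in all columns. The median distance was 0.95 for GH9B16 and 0.87 for GH9B12. The distance takes in the step between the light groups, so the closest genes have differences like the member's by construction. Closest to GH9B16 was AT1G31220 at 0.26, followed by AT2G35450 at 0.30, AT1G50880 at 0.30, AT2G19870 at 0.30 and AT2G25870 at 0.33. Their log2 differences ran from 1.16 for AT1G50880 to 1.78 for AT1G31220. Closest to GH9B12 was AT1G70350 at 0.23, followed by AT2G35490 at 0.25, AT4G26370 at 0.26, AT3G56250 at 0.28 and AT2G18920 at 0.29, with log2 differences from -1.32 for AT3G56250 to -0.97 for AT2G35490.

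In mean normalized signal over both groups, GH9B16 ranked 242 and GH9B12 ranked 299 from the lowest of 576 tested single-gene features. The features next to GH9B16 were AT4G00590 and ILA, whose differences were 0.29 and 0.04. Those next to GH9B12 were AT2G46910 and AT5G05330, whose differences were 1.06 and -1.74. Features of nearly equal mean signal thus had unlike differences between the light groups.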

How the data were processed

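The authors deposited linear array intensities for 16 columns, with no value below 0, and their image processing, background correction and scaling are unknown here. Features were named through the platform annotation and the TAIR10.1 gene table, to which 690 of 692 single-gene features were matched. Values of 0 were treated as missing, a feature was kept if it was above 0 in 6 or more of the 8 columns of white light and of blue light (2864 features), log2 values were quantile normalized among them, and neighbouring replicate numbers were averaged. All 16 columns were closest to their neighbour, which the labels do not explain, and p-values reflect only how the averaged samples vary, possibly for technical reasons. Blue light was compared with white light over all features with limma 3.58.1 in R 4.3.3 (two-sided, Benjamini-Hochberg), and the fit was tested on simulated data. There it recovered 26% of changes of 1 log2 unit and 87% of changes of 2, so features that did not pass may still differ. The simulation changed 100 of 2757 features by each amount, a smaller share than the fit called here, so recovery in these data may differ. SEs of single features come from this fit, and SEs of ratios from the averaged samples. Ratios use deposited values. Same-numbered samples of the groups deviated together, with correlations across features of 0.39, 0.46, 0.19 and 0.35 against a limit of 0.1. Samples of unlike number had correlations from -0.268 to 0.107, the highest also just above that limit. The deviations were read as pairing by number, and the fit with this block was an alternative. The genes and lists were chosen with earlier results of these data known. Named were the members, the tested single-gene features of 8 cell wall lists (matched by symbol or synonym), the 5 genes most alike in profile and the neighbours in mean signal, and GH9B8 beside them. Percentiles, ratios to all features and counts of joint features were added after the data were seen. No sequence is shown.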

Additional observations from a re-analysis of the deposited data

Results flagged for a closer look

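Among the 4 averaged samples of a group, white light sample 4 (replicates 7 and 8) stood below the others in the deposited signal of GH9B16, at 0.0733 against 0.115 to 0.123. On the log2 scale it was at -3.78, against -3.12 to -3.05. The total signal of this sample was 1044, the lowest of its group, and after quantile normalization it was the highest white light sample for GH9B16, at -2.14 against -2.87 to -2.35, and no longer stood apart. Blue light sample 4 stood above the others in the number of features listed at 0, at 485.5 against 425.5 to 434.0, and it had the lowest GH9B16 values of its group. These were 3 of 44 groups examined, of which chance gives about 5%, and the first 2 are the same values on different scales.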

How the results depend on the processing

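The log2 difference of GH9B16 was 2.95 without normalization, 2.25 scaled to total signal and 1.09 with the 10th percentile (0.0874) as a pseudocount. It was within 1 SD of 1.48 under the other 29 settings, and from 1.33 to 1.68 with any averaged sample left out. For GH9B12 it was 0.41 without normalization, the opposite direction, and -0.29 when scaled to total signal, and within 1 SD of -1.06 under the other 30 settings. Both scalings leave in place a median difference of all features (1.36 and 0.67). Treating the 16 columns as separate or adding the replicate block cannot change the GH9B16, GH9B12 and ratio differences. Leaving out a single column keeps its close neighbour. The log2 ratio differed by 1.88 with the pseudocount, which raises the dim white light values of GH9B16 and so lessens the difference, and by 2.34 to 2.75 under 29 others. Median centring and scaling to total signal cannot change it. The features called numbered 927, against 1574 without normalization (1530 higher, 44 lower), 1287 scaled to total signal (1074 and 213) and 1483 with 16 separate columns (734 and 749). With any averaged sample left out they numbered 646 to 990. With the replicate block 1195 were called, the SE of the ratio difference was 0.27 in place of 0.32, and neither single-gene cell wall feature changed its call, while 6 in place of 4 of the 9 joint features outside the GH9 family passed. Of the 2 cell wall genes tested, 2 passed without normalization and 1 scaled to total signal. Of the joint GH9 features 3 passed without normalization, 2 scaled to total signal and 2 with 16 separate columns, against 1. The stricter and looser filters on values of 0 moved no count by over 1.5 times. The number of arrays limits the precision, and signal over background is not given here.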
